A study of Homo sapiens with 7 samples.

Results

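The comparison described here sets polysome-bound mRNA against total mRNA in HCT116 cells, gene by gene. For each gene the mean RPKM of the 2 polysome libraries, called translation activity or TA, was divided by the mean RPKM of the 3 RNA-seq libraries, called mRNA abundance or RA, and the ratio was read on the log2 scale. RPKM is the number of reads scaled by exon length and by the size of the library. Genes with a mean of at least 1 RPKM in RA or in TA were taken, which gave 11673 of the 20072 gene symbols in the deposited table. Of these, 10891 genes reached 1 RPKM in both, 741 in RA alone and 41 in TA alone, so genes of the last kinds entered through the higher of their values. GATA3, at 0.868 in RA and 1.001 in TA, lay just inside the threshold, and ZNF555, at 0.967 and 0.999, lay just outside it.

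HCT116 is an established human colorectal carcinoma line. All libraries came from log-phase cells, with no treatment named, of this 1 line, grown in serum-free medium with epidermal growth factor, insulin and transferrin, and the series also holds 2 GRO-seq libraries of nascent RNA. For RA, total cellular RNA was extracted, so nuclear RNA was included. For TA, cells were held in cycloheximide, nuclei were pelleted, and the polysomal fractions of a sucrose gradient were collected, with mRNA purified by the same kit for both assays. The replicates are described as biological, and whether equal replicate numbers mark the same culture is not stated.

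A polysome is an mRNA with several ribosomes on it at once. How many ribosomes an mRNA carries depends on how often they start, how fast they move and how long its coding region is, and a short coding region has room for few of them. The 5' untranslated region (5' UTR), which the small ribosomal subunit scans before the start codon, and terminal oligopyrimidine (TOP) tracts, the runs of C and T at the very start of mRNAs for the translation machinery, are well-known places where loading is controlled.

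The identity of the cells was read from defining markers. Epithelial EPCAM, CDH1, KRT8, KRT18 and KRT19 were high, with RA from 47.1 RPKM for CDH1 to 977 for KRT19. The intestinal markers VIL1, CDX1, CDH17, LGALS4 and GPA33 were near 0, with RA of at most 0.169, while CDX2 stood at 8.96 and KRT20 at 8.24. None of the 5 endothelial markers reached 1 RPKM, and of the 8 fibroblast and 8 leukocyte markers 1 and 2 did, namely COL1A1 at 11.5, CD74 at 3.89 and CD4 at 1.32. Library sizes, recovered from the RPKM values, lay between 20299018 and 22532134 reads for RA and were 30805391 and 22421062 reads for TA, and 1 RPKM of a gene of median exon length stood for 60.1 to 91.3 reads. The reads carry no molecular identifiers, so this precision covers counting error only.

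The median gene had a lower share of the polysome libraries than of the RNA-seq libraries. Over the 11673 genes the log2 ratio had a median of -0.36, which lay between -0.38 and -0.31 in the 6 pairs of 1 polysome and 1 RNA-seq library. Because RPKM values are shares of a library, this zero point holds no measure of molecules per cell, and ratios of groups of genes are given below relative to the median of all genes. The quartiles lay at -0.92 and 0.19.

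By limma on log2(RPKM + 0.1) with Benjamini-Hochberg adjustment at 0.05, 795 genes were higher in polysomes (6.81% of those tested) and 3204 were lower (27.4%). With each library centred on its own median, 1988 genes were higher (17.0%) and 1344 lower (11.5%), and all 795 genes of the first count were among the 1988. The higher share of all calls rose from 19.9% to 59.7% with centring, so the balance between the directions was set by the scaling. The smallest adjusted p-value was 0.00865. These calls rest on 5 libraries, and without RNA-seq replicate 3 or without polysome replicate 1 no gene passed, although 4163 and 3671 genes had an unadjusted p-value under 0.05. The same holds for every count of called genes given below before centring, and the centred fit was not run without single libraries. With polysome replicate 2 left out, 177 genes were higher and 1697 lower, and without RNA-seq replicate 1, which stood farthest from the other RNA-seq libraries, 897 and 3128.

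**Figure D1:**
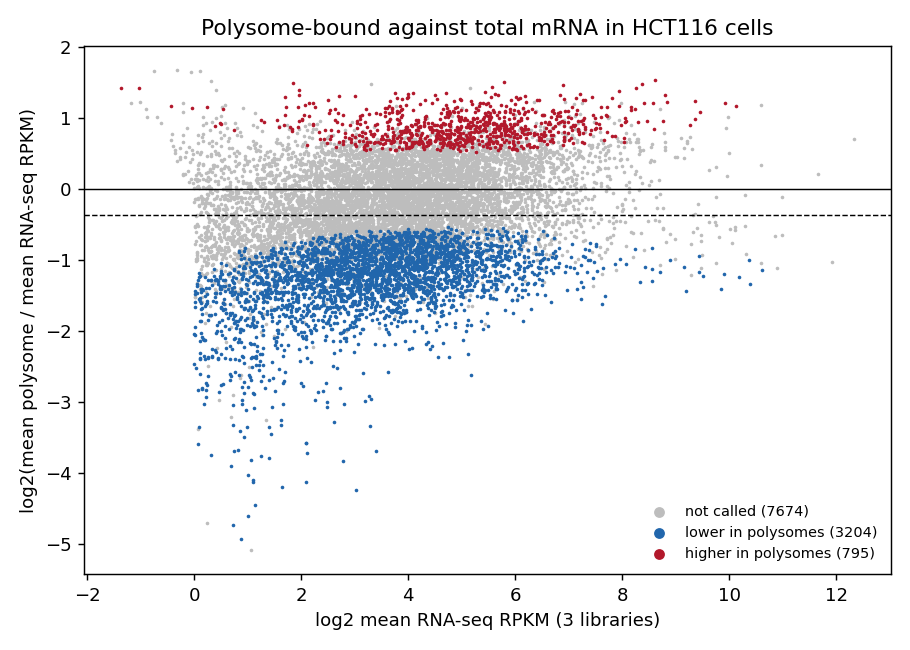
Each point is 1 of the 11673 genes, with log2 mean RNA-seq RPKM on the x axis and the log2 ratio of mean polysome to mean RNA-seq RPKM on the y axis. The dashed line is the median of all genes at -0.36, and the 3204 genes called lower (blue) reach farther from it than the 795 called higher (red).

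By a rule that asked for a call, the same side of the median in all 6 pairs and a mean of at least 10 RPKM, the 10 highest were KRT18, ECH1, KRT81, GDF15, CD63, MRPL2, MANF, CD74, PPIB and EXOSC7. KRT18, the acidic keratin of simple epithelia, stood at 264, 513 and 406 RPKM in the RNA-seq libraries and at 1304 and 979 in the polysome libraries, a 2.90-fold difference (adjusted p = 0.0171). Its partner KRT8 stood at 605, 745 and 750 against 1470 and 1518, 2.13-fold (adjusted p = 0.0207). In both keratins every polysome library lay above every RNA-seq library.

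GDF15, a secreted stress cytokine, stood at 209, 379 and 403 RPKM in RNA-seq and at 902 and 938 in polysomes, 2.79-fold (adjusted p = 0.0174). MRPL2, a protein of the large mitochondrial ribosomal subunit, was among the most even, with 47.4, 49.3 and 45.6 against 129 and 130 (adjusted p = 0.00901). Reads of MRPL2 are less certain, since 52.1% of its exon length is shared with another gene, and for PPIB the share was 57.6%. CD74, the invariant chain of MHC class II, stood at 3.93, 4.04 and 3.70 RPKM against 9.83 and 10.7, 2.64-fold (adjusted p = 0.00924). MANF, an endoplasmic reticulum (ER) stress protein, stood at 199, 424 and 300 against 1011 and 650, so its libraries did not overlap although they spread more than those of MRPL2. All of these genes also passed after centring.

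The lowest ratios were more extreme. AHSA2, annotated as a transcribed pseudogene, stood at 9.35, 11.7 and 10.7 RPKM in RNA-seq and at 1.07 and 0.574 in polysomes, 12.9-fold lower (adjusted p = 0.00865). AHNAK, which codes for a giant scaffold protein, stood at 42.5, 44.7 and 21.1 against 8.41 and 3.32, 6.15-fold lower (adjusted p = 0.0109). RC3H2, a roquin family RNA-binding protein, stood at 12.5, 8.92 and 15.5 against 2.23 and 1.91, 5.95-fold lower (adjusted p = 0.00901). No polysome library of these 3 genes reached the lowest RNA-seq library.

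The other 7 of the 10 lowest were SPATA20, ANO9, KIFC2, SLC4A3, CAPRIN2, EDEM1 and SPTBN1. Their log2 ratios lay between -2.36 for SPATA20 and -2.20 for SPTBN1. EDEM1, which hands misfolded glycoproteins to degradation, stood at 9.37, 24.9 and 16.1 RPKM against 4.46 and 2.68, whereas 32 of 38 genes of the ER list described below lay above the median of all genes. CAPRIN2 stood at 12.01, 27.3 and 24.6 against 4.52 and 4.48. All 10 of the lowest genes passed after centring too.

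**Figure D2:**
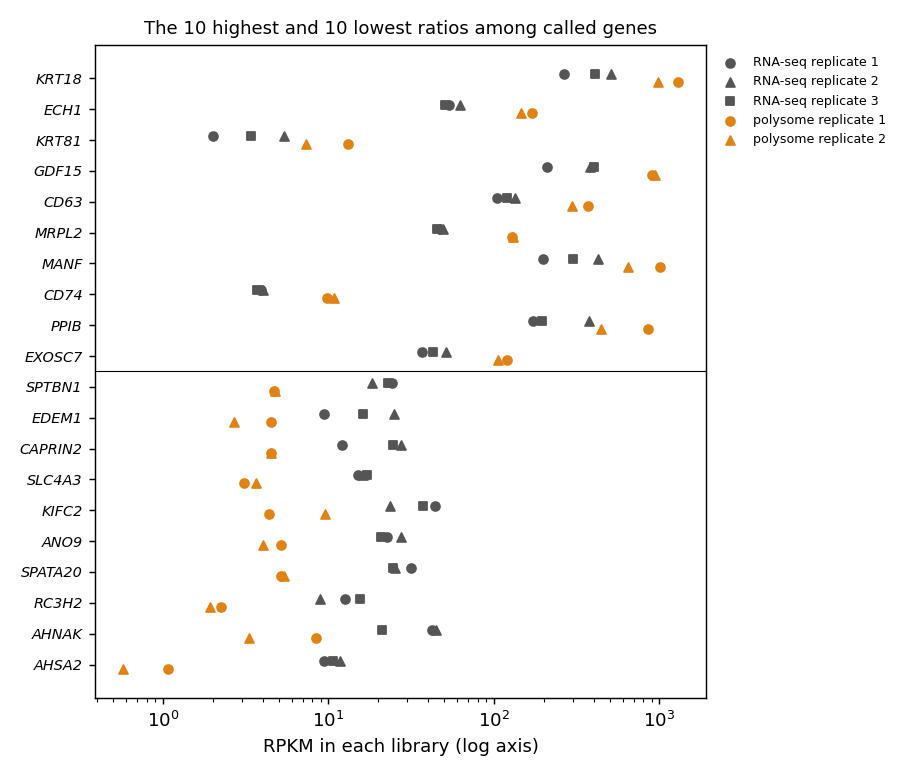
RPKM of the 10 highest and 10 lowest genes in each of the 5 libraries, on a log axis, with RNA-seq in grey and polysomes in orange. In every row the polysome libraries lie on 1 side of all RNA-seq libraries, closest for PPIB, where RNA-seq replicate 2 at 374 lies near polysome replicate 2 at 441.

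Coding genes were then grouped into families, and 58 lists had at least 5 tested members. The members and lists were chosen with earlier results of these data known, so the counts below describe the families and are not a test of them. For comparison, 6.81% of all genes were higher and 27.4% lower, and 17.0% and 11.5% after centring. The list median lay above that of all genes for 38 lists and below it for 20. It kept its side in all 6 pairs of libraries for 29 lists above and 15 below, and changed side in 14. The ratio also rose with RA across genes (Spearman's rho 0.315). Relative to genes of like RA (1 of 5 groups), the median was -0.19 for initiation factors, -0.10 for p53 genes and 0.09 for hnRNP proteins. It was 0.23 for cholesterol and fatty acid synthesis, 0.26 for actin genes and -0.78 for cytosolic ribosomal proteins. Synthetases at 0.77 and the 20S proteasome core at 0.76 stayed high.

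**Figure D3:**
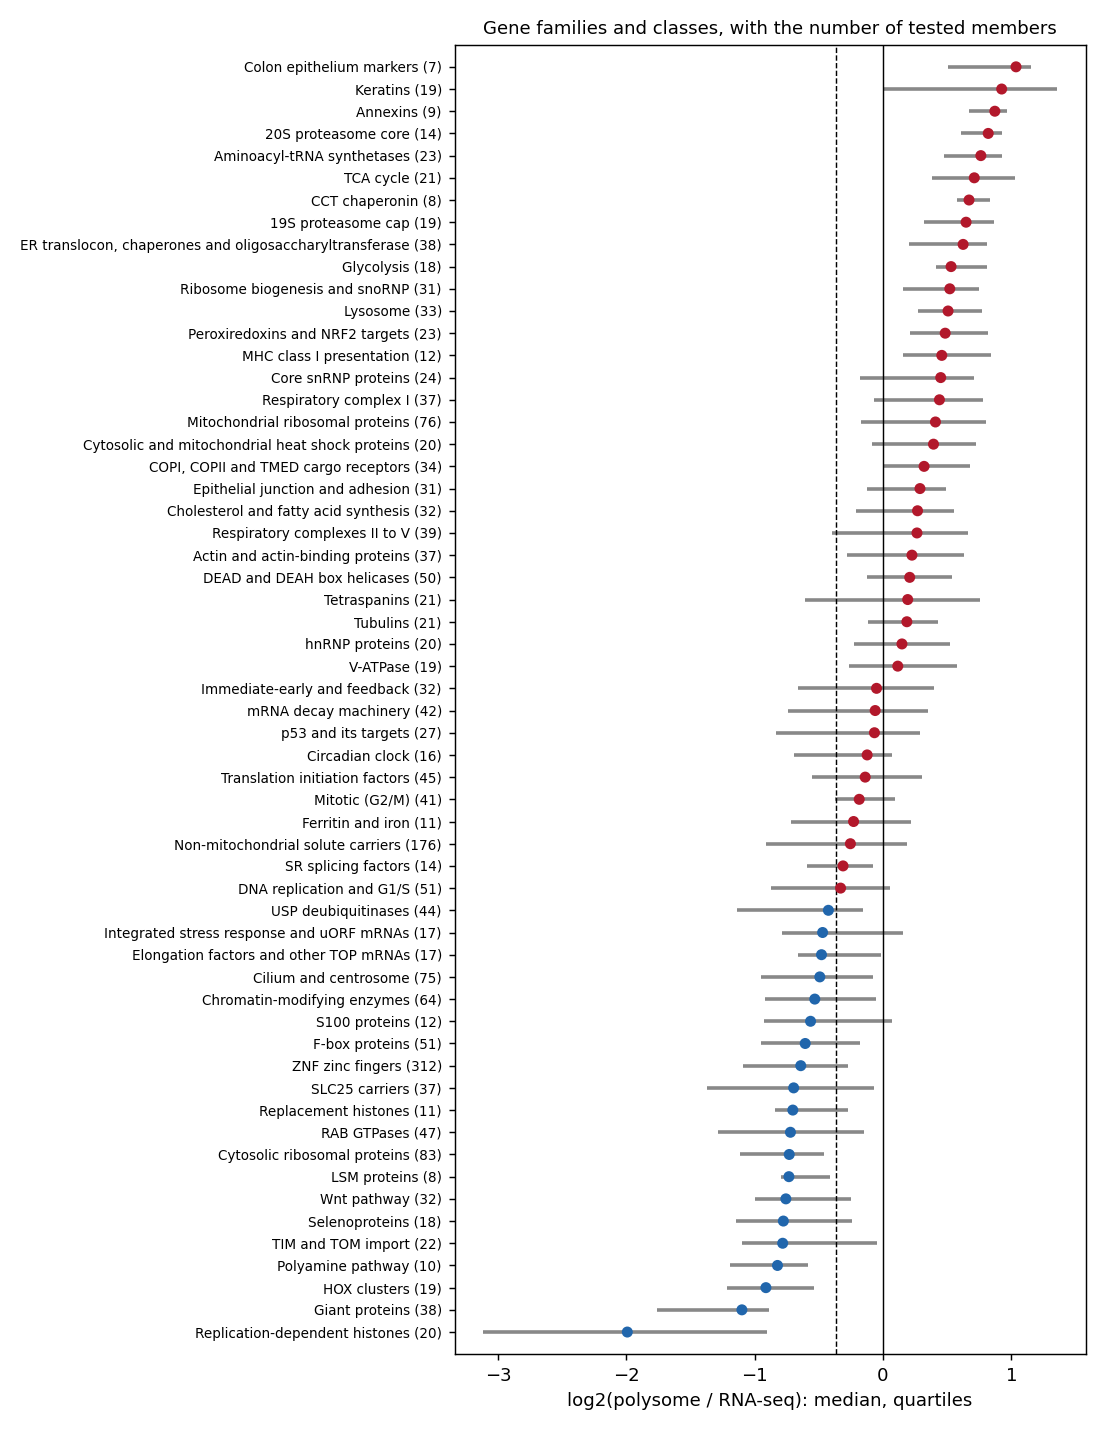
Median (dot) and quartiles (bar) of the log2 ratio of polysome to RNA-seq over the tested members of each list, sorted, with the number of members in brackets. The solid line is a ratio of 1 and the dashed line the median of all genes, and proteasome, synthetase and chaperonin lists lie to the right of both, while giant proteins lie to the left of both. The position of replication-dependent histones, at the far left, is that of members that could enter through RNA-seq alone.

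Cytosolic ribosomal proteins, which build the ribosome itself, lay below the median gene. Of 83 tested members none was higher in polysomes and 28 were lower (33.7%, against 27.4% of all genes). After centring none was higher, against 17.0% of all genes, and 10 were lower (12.05%, near the 11.5% of all genes). Their median ratio was -0.37 relative to all genes, and 14 of 83 members lay above the median of all genes. RPL37A stood at 1253, 2196 and 1240 RPKM in RNA-seq and at 683 and 743 in polysomes, 2.19-fold lower (adjusted p = 0.0489, not passed after centring). RPLP0, the stalk protein of the large subunit, stood at 471, 752 and 546 against 184 and 254, 2.70-fold lower (adjusted p = 0.0146). Both groups of libraries were apart for these genes.

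The size of this difference changed with RNA-seq replicate 2. Relative to the library median, ribosomal protein mRNAs were 0.75 higher on the log2 scale in RNA-seq replicate 2 than in replicate 1, in 79 of 83 members, while the polysome libraries differed by -0.01. Without replicate 2 the list median was -0.14 relative to all genes and 19 members were lower, and over the 6 pairs it lay between -0.84 and -0.04. RPL41, the shortest protein of the list, had a log2 ratio of -1.998 and passed with and without centring (adjusted p = 0.00959). When polysome replicate 2 was removed, 13 members were lower. Ribosomal protein genes have many near-identical copies in the genome, and how reads shared with them were counted is not given in the sources used here, so levels of single members are uncertain.

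Ribosomal protein mRNAs are the best-known TOP mRNAs, so the starts of 4 members with high RA among those matched to a start are shown. Those of 2 other TOP genes and of 2 core proteasome and 2 chaperonin genes are shown with them. Each line gives the 15 bases before and the 15 bases from the RefSeq start on the coding strand, 5' to 3', with the longest unbroken run of C and T in capitals (GRCh38.p14).
RPS6 (chr9:19380222-19380251, minus strand): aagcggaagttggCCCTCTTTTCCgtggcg
RPL37A (chr2:216498829-216498858, plus strand): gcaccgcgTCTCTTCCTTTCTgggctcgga
RPS18 (chr6:33272060-33272089, plus strand): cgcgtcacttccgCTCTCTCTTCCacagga
RPL38 (chr17:74203663-74203692, plus strand): aacggaagtctcgTTCTTTTTCgtcctttt
EEF2 (chr19:3985449-3985478, minus strand): gttgacgtcagcgTTCTCTTCCgccgtcgt
TPT1 (chr13:45341169-45341198, minus strand): agcggctgagtcggCCTTTTCCgcccgctc
PSMB4 (chr1:151399558-151399587, plus strand): gctttcaTTTTTTCTgctaccgtgactaag
PSMB3 (chr17:38752726-38752755, plus strand): agCCaatgaagagacagcagtgagagcggt
CCT3 (chr1:156338278-156338307, minus strand): gtagcgggttgaggtgtaagCCCTgaggag
CCT7 (chr2:73234293-73234322, plus strand): TCTattgcgcgaggcattgtgggttgctgg

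A run of at least 8 such bases within this window was found for 49 of 67 ribosomal protein genes with a RefSeq start, or 73.1%, against 13.4% of all 27305 RefSeq starts and 13.3% of the 9497 tested genes with one. The median run was 11 bases in ribosomal protein genes and 4 bases in tested genes. A match is a description of the letters and not of use in these cells. Across the other genes the median ratio fell with longer runs, while the quartiles of the groups overlapped. Without ribosomal protein and other TOP genes, the median log2 ratio was -0.30 for the 5021 genes with a run of at most 4 bases, -0.36 for 5 to 7, -0.46 for 8 to 10 and -0.50 for the 425 genes with 11 or more.

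Elongation factors and other TOP mRNAs were less uniform. Of 17 members 1 was higher and 3 were lower, and the list median changed side between pairs, from -0.48 to 0.20 relative to all genes, and was 0.10 without RNA-seq replicate 2, where 1 member was lower. EEF2, which moves the ribosome along the mRNA, stood at 1148, 1434 and 1188 RPKM in RNA-seq and 923 and 829 in polysomes, a log2 ratio of -0.52 that was not called (adjusted p = 0.166). PABPC1, the poly(A)-binding protein, was lower at 625, 787 and 768 against 261 and 361, 2.34-fold (adjusted p = 0.0156), with centring too. VIM, an intermediate filament protein whose mRNA is counted among TOP mRNAs, was the member called higher, at 1.57, 1.18 and 1.46 against 2.61 and 2.78.

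Initiation factors split within the family. Of 45 members 5 were higher (11.1%) and 7 lower (15.6%, against 27.4% of all genes), and 11 and 3 after centring. The median of all genes lay below 30 of the 45 members. The list median was 0.23 relative to all genes and changed side over pairs, from -0.11 to 0.59. EIF3I, a subunit of the largest initiation factor, stood at 184, 225 and 175 RPKM against 480 and 391 (adjusted p = 0.0132). EIF4E, which binds the cap, stood at 8.14, 5.91 and 6.83 against 2.25 and 3.62 (adjusted p = 0.0177), and EIF4EBP2, an inhibitor of EIF4E, at 30.5, 12.3 and 14.6 against 3.83 and 6.24 (adjusted p = 0.0197). EIF4G2 and EIF2D, which act in initiation without the usual cap-binding or Met-tRNA factors, were lower as well (log2 ratios -1.05 and -1.12, adjusted p = 0.0152 and 0.0102). Of these 5 genes, EIF3I, EIF4EBP2 and EIF2D passed after centring. The 5 and 7 calls fell to 2 and 5 without polysome replicate 2.

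Aminoacyl-tRNA synthetases, which charge tRNAs, lay far above the median gene. Of 23 members 7 were higher and none lower, 13 and none after centring, and 22 lay above the median of all genes. The list median was 1.13 relative to all genes and lay between 0.35 and 1.63 over the 6 pairs. FARSA, a subunit of the phenylalanine enzyme, stood at 89.3, 86.1 and 86.1 RPKM in RNA-seq and 206 and 212 in polysomes, 2.40-fold (adjusted p = 0.00938). Without RNA-seq replicate 2, 15 members were called, and without polysome replicate 2, 5 members.

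The protein folding and degradation machinery was on the same side. In the 20S core of the proteasome 9 of 14 subunits were higher and none lower, 13 after centring, and all 14 lay above the median of all genes, with a list median of 1.18 relative to it (0.87 to 1.40 over pairs). PSMB4 stood at 274, 231 and 236 RPKM against 531 and 588 (adjusted p = 0.0115), and PSMB1 at 311, 239 and 248 against 531 and 537 (adjusted p = 0.0181). PSMB2 had the lowest ratio of the core and its libraries overlapped, at 50.2, 25.1 and 31.04 against 27.3 and 36.4. Exons of PSMA2, PSMA6 and PSMA1 overlap other genes over 94.6%, 81.4% and 67.0% of their length, so these 3 are uncertain. Without RNA-seq replicate 2, 6 of the core subunits were called, and without polysome replicate 2 none.

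In the 19S cap 7 of 19 subunits were higher and 1 lower, and 13 and none after centring. PSMD4, a ubiquitin receptor, stood at 90.3, 95.2 and 70.5 RPKM against 228 and 182 (adjusted p = 0.0109). SHFM1, a very small subunit, was the exception, at 203, 221 and 134 against 74.6 and 93.5 (adjusted p = 0.0230). The CCT chaperonin, a folding ring for actin and tubulin, had 3 of 8 subunits higher and 7 after centring, with a median of 1.04 relative to all genes. CCT5 stood at 121, 94.0 and 89.5 against 221 and 192 (adjusted p = 0.0156), and TCP1, the lowest of the ring, overlapped between assays at 165, 104 and 126 against 144 and 154. On dropping polysome replicate 2, 2 subunits of the cap and none of the chaperonin were called, and without RNA-seq replicate 1, 11 and 6.

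Regulators of ubiquitin had a larger share called lower than all genes. Of 44 USP deubiquitinases 1 was higher and 19 were lower (43.2%, against 27.4% of all genes). Of 51 F-box proteins, the substrate receptors of SCF ligases, none was higher and 21 were lower (41.2%). After centring 5 USP genes were higher and 8 lower (18.2%, against 11.5% of all genes). For F-box genes these counts were 3 and 9 (17.6%). The USP median was -0.06 relative to all genes and changed side over pairs, from -0.40 to 0.14. The F-box median was -0.24 relative to all genes and lay between -0.31 and -0.15 over pairs. USP11 was the member called higher, at 54.7, 39.7 and 47.0 RPKM against 93.8 and 96.8 (adjusted p = 0.0133), while USP21 stood at 10.5, 12.3 and 14.1 against 2.50 and 3.64 (adjusted p = 0.00924). Without polysome replicate 2, 7 USP and 9 F-box members were lower.

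RNA-processing families differed from each other. LSM proteins form rings that bind the ends of U6 RNA and of mRNAs marked for decay. Of the 8 members none was higher and 4 were lower, namely LSM1, LSM2, LSM3 and LSM5, and none of them was called after centring. LSM3 had the lowest ratio, at 97.7, 64.0 and 68.6 RPKM in RNA-seq and 27.0 and 48.5 in polysomes (adjusted p = 0.0391). LSM7 stood at 121, 119 and 103 against 90.3 and 113 and LSM4 at 146, 75.9 and 106 against 67.9 and 118, and the libraries of both overlapped. The list median was -0.37 relative to all genes (-0.66 to -0.06 over pairs), and without either RNA-seq replicate 1 or replicate 2, 2 members were lower.

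Core snRNP proteins, close in structure to the LSM proteins, had 8 of 24 members higher and 1 lower. SNRPC stood at 81.0, 69.0 and 70.1 RPKM against 175 and 170, 2.35-fold (adjusted p = 0.00938). SNRPG, the smallest of the Sm ring, was the member called lower, at 45.2, 31.4 and 32.9 against 16.5 and 19.5 (adjusted p = 0.0181). SR splicing factors, which bind exonic enhancers, had 2 of 14 members lower (14.3%, against 27.4% of all genes) and none higher. Their list median was 0.05 relative to all genes and changed side over pairs, from -0.20 to 0.49, with 7 of 14 members above the median of all genes. SRSF2, the lowest of them, stood at 111, 65.6 and 60.5 against 23.1 and 25.9 (adjusted p = 0.0109). With polysome replicate 2 left out, 2 snRNP members were higher and 1 SR factor was lower.

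Ribosome biogenesis and snoRNP factors had 8 of 31 members higher and 1 lower, and 20 and none after centring. NOP58, a core snoRNP protein, stood at 67.6, 75.5 and 54.1 RPKM against 156 and 94.4 (adjusted p = 0.0443), and NOP10, a small snoRNP protein, at 154, 177 and 172 against 67.5 and 119 (adjusted p = 0.0428). The mRNA decay machinery was divided, with 6 of 42 members higher (14.3%) and 12 lower (28.6%, near the share of all genes), and its median was above all genes in every pair, by 0.16 to 0.51. EXOSC7, an exosome subunit, stood at 36.9, 51.2 and 42.6 against 120 and 105 (adjusted p = 0.00953). The members called lower included deadenylase subunits (CNOT6, CNOT6L, CNOT7, RQCD1, PAN2, PAN3), decapping and 5' decay factors (DCP2, PATL1, XRN1) and nonsense-mediated decay factors (SMG1 and SMG5). SMG5 stood at 26.7, 28.5 and 23.1 against 8.30 and 5.71 (adjusted p = 0.00914). When polysome replicate 2 was removed, 1 biogenesis factor was higher and 2 were lower, and 1 decay factor was higher and 5 were lower.

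Nuclear-encoded mitochondrial mRNAs were mostly above the median gene, with clear exceptions. Of 76 mitochondrial ribosomal proteins 26 were higher and 7 lower, and 47 and none after centring, with a list median of 0.77 relative to all genes (0.68 to 0.86 over pairs). This median and that of the cytosolic ribosomal proteins lay on opposite sides of all genes in every pair of libraries. Of 37 subunits of respiratory complex I 12 were higher and none lower, and NDUFB8 stood at 142, 111 and 110 RPKM against 286 and 300 (adjusted p = 0.00997, with 72.0% of its exon length overlapped by another gene). In the tricarboxylic acid cycle 10 of 21 enzymes were higher, 17 after centring, and all 21 lay above the median of all genes. IDH3G, a subunit of the NAD-dependent isocitrate dehydrogenase, stood at 27.7, 23.7 and 26.7 against 63.9 and 68.9 (adjusted p = 0.00924). On dropping polysome replicate 2, 15 mitochondrial ribosomal proteins, 4 complex I subunits and 5 enzymes of the cycle were higher.

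Respiratory complexes II to V had 8 of 39 members higher and 4 lower. ATP5H, a subunit of the ATP synthase stalk, stood at 164, 163 and 151 RPKM against 400 and 365 (adjusted p = 0.00957). All 4 members called lower were very small subunits, namely ATP5E, UQCR11, UQCRH and UQCRQ. ATP5E stood at 169, 158 and 99.3 against 58.6 and 66.5 (adjusted p = 0.0217), without overlap and without a call after centring. Import components of the TIM and TOM complexes had 1 of 22 members higher and 10 lower (45.45%, against 27.4% of all genes). After centring the lower share was 13.6%, near the 11.5% of all genes. TIMM50, the receptor of the inner membrane complex, was the one called higher, at 30.01, 30.9 and 33.9 against 65.8 and 71.6 (adjusted p = 0.00957), and TOMM5, a small subunit of the outer membrane pore, stood at 113, 76.3 and 84.5 against 24.1 and 51.5 (adjusted p = 0.0271, with 81.9% of its exon length overlapped by another gene). SLC25 carriers of the inner membrane had 1 of 37 members higher and 19 lower (51.35%, against 27.4% of all genes). After centring 5 carriers were higher and 12 lower (32.4%, against 11.5% of all genes). Without polysome replicate 2, 2 members of complexes II to V were higher and 3 lower, 9 import components were lower, and 14 carriers were lower.

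Families were then divided by coding length. In 13 of the 14 lists with at least 2 members on each side of a coding length of 300 bases, the shorter members had the lower median ratio, with selenoproteins as the exception. None of the 7 mitochondrial ribosomal proteins called lower was among the short ones, and 6 of the 10 import components called lower were. In respiratory complex I the 7 short members had a median log2 ratio of -0.33 and the 29 others 0.61. In complexes II to V the medians were -0.47 for 13 short members and 0.56 for 26 others. In the core snRNP proteins they were -0.33 for 4 and 0.54 for 20, and in the ER list -0.46 for 3 and 0.67 for 35. Among cytosolic ribosomal proteins they were -1.29 for 10 and -0.70 for 73.

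**Figure D4:**
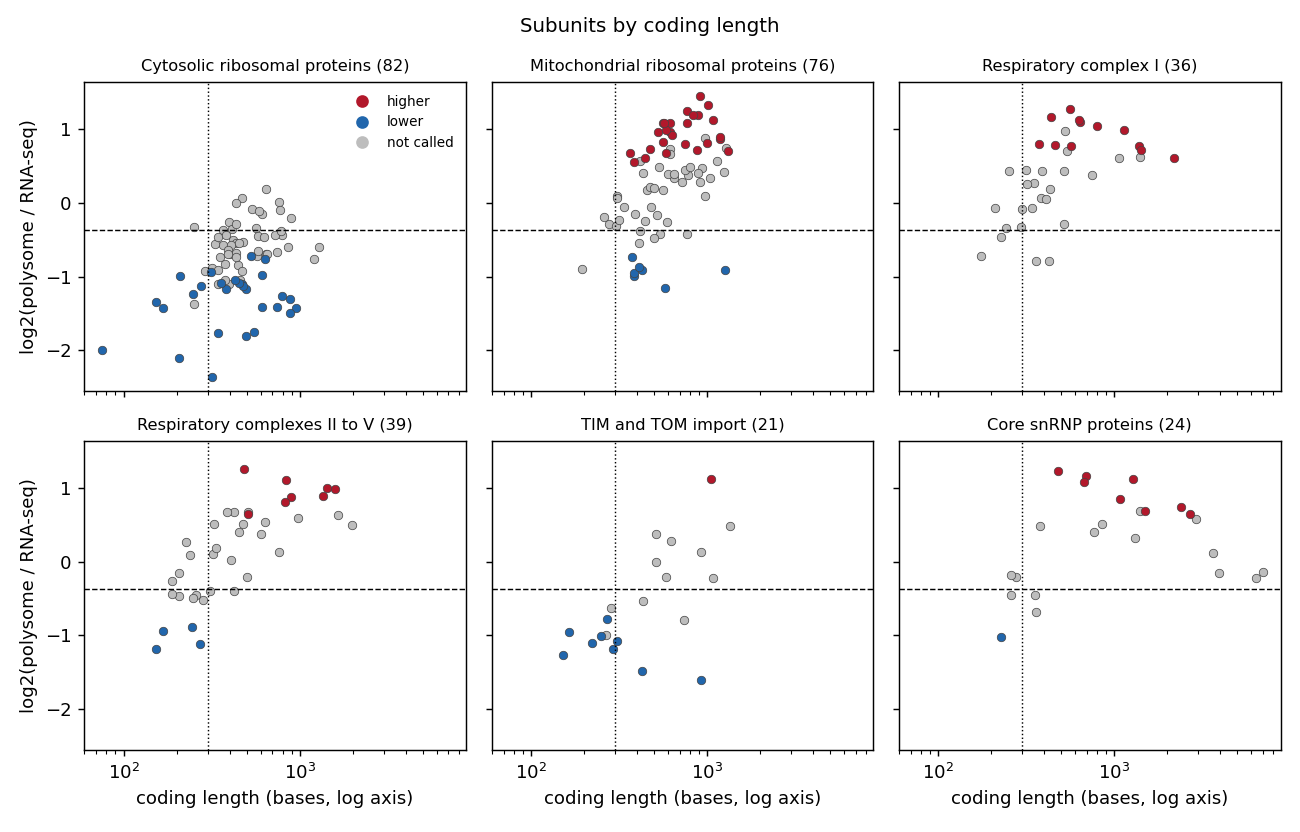
Log2 ratio of polysome to RNA-seq against coding length in bases on a log axis, for the members of 6 families with a coding length in the annotation and a ratio within the plotted range. Red points were called higher and blue lower, the dotted line marks 300 bases and the dashed line the median of all genes, and in every panel the members to the left of the dotted line have a lower median than the others, -0.33 against 0.61 in complex I.

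Across all genes the relation to coding length had a peak in the middle. Of 231 genes with a coding length under 300 bases, none was higher in polysomes and 112 were lower (48.5%), and their median ratio was -0.55 relative to all genes (-0.98 to -0.23 over pairs). From 600 to 1500 bases 496 of 4758 genes were higher (10.4%) and the median was 0.14 relative to all genes. Of 295 genes of 6000 bases or more none was higher and 164 were lower (55.6%), with a median of -0.51 (-0.70 to -0.37 over pairs). After centring the calls under 300 bases were 4 higher and 37 lower, and those from 6000 bases 1 and 78. Leaving out ribosomal proteins and histones gave 105 lower of 221 short genes.

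Giant proteins, a list of very long cytoskeletal, chromatin and ubiquitin ligase proteins, had 31 of 38 members lower and none higher, and 18 after centring. SYNE2, which ties the nucleus to the cytoskeleton, stood at 5.61, 0.992 and 2.66 RPKM against 0.274 and 0.373 (adjusted p = 0.0245). LAMA5, a laminin chain, stood at 29.5, 28.6 and 30.1 against 8.27 and 7.66 (adjusted p = 0.00869), and KMT2C, a histone methyltransferase, at 4.04, 4.80 and 5.47 against 1.49 and 1.05 (adjusted p = 0.00938). FLNA, a filamin that crosslinks actin, was the highest of the list, at 156, 181 and 197 against 163 and 169, and its libraries overlapped. Its log2 ratio of -0.10 lay below 0 but above the median of all genes. With polysome replicate 2 left out, 14 members were lower.

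The 5' UTR length ordered genes more evenly. In 5 equal groups of genes from the shortest to the longest 5' UTR, the median log2 ratio was 0.09, -0.08, -0.33, -0.59 and -0.75. Spearman's rho across 11366 genes was -0.36, and -0.40 to -0.27 over pairs of libraries. It was -0.25, -0.37 and -0.36 among genes with low, middle and high RA. Genes are not independent replicates, and RA is also the denominator of the ratio, so these are descriptions. Lengths are those of the canonical transcript of each gene, which need not be the one used in these cells.

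Both lengths showed within each other. Among genes with a coding length of 600 to 1500 bases, those with a 5' UTR below the median length had 434 of 2586 members higher (16.8%) and 339 lower (13.1%), and those at or above it had 62 of 2172 higher (2.86%) and 771 lower (35.5%). Under 300 bases the median log2 ratio was -0.85 with a short and -1.10 with a long 5' UTR. The 3' UTR went the same way with a smaller rho of -0.24, and in 5 groups by RA the median log2 ratio ran from -0.71 in the lowest to 0.06 in the highest.

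**Figure D5:**
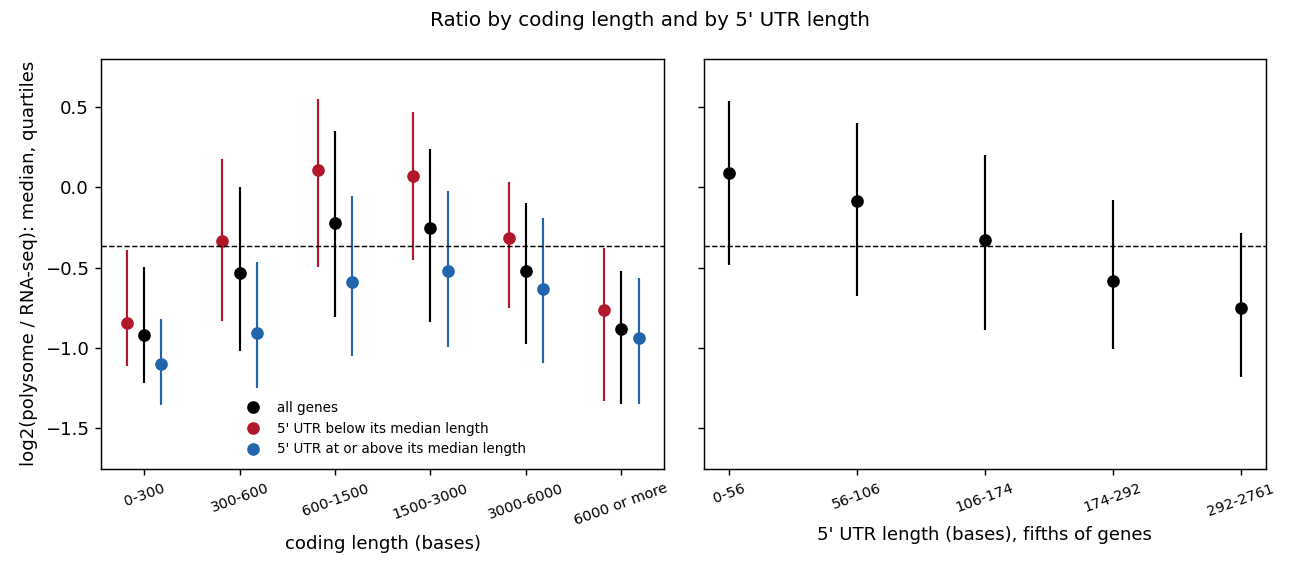
Median (dot) and quartiles (line) of the log2 ratio of polysome to RNA-seq by coding length, for all genes and for genes with a 5' UTR below or at and above its median length (left), and by 5 equal groups of 5' UTR length (right). The dashed line is the median of all genes, and genes of 600 to 3000 bases lie highest, with a lower median for long 5' UTRs in every group.

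Metabolic and secretory families lay above the median gene. Glycolysis had 4 of 18 enzymes higher and none lower, and 11 after centring, and all 18 lay above the median of all genes. ALDOC, an aldolase, stood at 139, 101 and 140 RPKM against 222 and 291 (adjusted p = 0.0222). Peroxiredoxins and other antioxidant genes had 8 of 23 members higher and none lower, with GSTP1, a glutathione transferase, at 557, 331 and 412 against 732 and 960 (adjusted p = 0.0446). Cholesterol and fatty acid synthesis had 6 of 32 members higher and 3 lower. DHCR7, the last enzyme of cholesterol synthesis, stood at 106, 111 and 135 against 214 and 245 (adjusted p = 0.0162), while SREBF2, the transcription factor that drives the pathway, stood at 86.7, 102 and 103 against 67.8 and 57.3 (adjusted p = 0.0423). When polysome replicate 2 was removed, none of these 3 lists had a called member, while 10 glycolytic enzymes were called without RNA-seq replicate 1 and 2 antioxidant genes without RNA-seq replicate 2.

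Genes of the ER translocon, chaperones and oligosaccharyltransferase had 8 of 38 members higher and 1 lower, and 21 and 1 after centring, with a median of 0.99 relative to all genes. PDIA3, a disulfide isomerase of the ER, stood at 96.4, 201 and 125 RPKM against 425 and 262 (adjusted p = 0.0338). OST4, a very small subunit of the oligosaccharyltransferase, was the member called lower, at 149, 150 and 132 against 39.4 and 69.7 (adjusted p = 0.0120). Of 34 coat and cargo receptor genes of the ER and Golgi 8 were higher and 1 lower, with TMED9 at 136, 174 and 152 against 403 and 332 (adjusted p = 0.0106). The ER count was 4 higher without RNA-seq replicate 1, 14 without RNA-seq replicate 2 and 1 without polysome replicate 2, and the coat count was 3 without polysome replicate 2.

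Lysosomal genes had 13 of 33 members higher and 1 lower, and 32 lay above the median of all genes. CTSC, a cathepsin, stood at 8.09, 12.2 and 11.4 RPKM against 22.4 and 22.3 (adjusted p = 0.0152). MHC class I presentation had 4 of 12 members higher and none lower, with HLA-B at 131, 195 and 198 against 412 and 447 (adjusted p = 0.0127). Tetraspanins split, with 7 of 21 higher and 3 lower. CD63, an endosomal tetraspanin, stood at 105, 134 and 120 against 370 and 295 (adjusted p = 0.00938), and TSPAN17 at 36.3, 27.5 and 25.2 against 7.49 and 10.8 (adjusted p = 0.00938). Without RNA-seq replicate 2, 6 lysosomal genes were higher, and without polysome replicate 2, 1 lysosomal gene, no class I gene and 1 tetraspanin.

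Solute carriers outside mitochondria had 6 of 176 members higher (3.41%, against 6.81% of all genes) and 44 lower (25%, against 27.4%). After centring 18 were higher (10.2%, against 17.0%) and 12 lower (6.82%, against 11.5%). Their list median was 0.11 relative to all genes and changed side over pairs, from -0.02 to 0.14. Annexins, which bind membranes in the presence of calcium, had 5 of 9 members higher and none lower. ANXA1 stood at 371, 597 and 378 RPKM against 1414 and 831 (adjusted p = 0.0302). Keratins had 5 of 19 members higher and none lower, and actin and its binding proteins 7 of 37 higher and 4 lower, with EZR, which links actin to the membrane, at 360, 801 and 803 against 1610 and 1484 (adjusted p = 0.0443). RAB GTPases, switches of vesicle traffic, went the other way, with 2 of 47 higher and 23 lower (48.9%, against 27.4% of all genes). After centring 4 RAB genes were higher and 12 lower (25.5%, against 11.5% of all genes). RAB26 stood at 10.1, 3.89 and 5.06 against 0.658 and 1.56 (adjusted p = 0.0147), and RAB8A at 58.9, 48.7 and 53.7 against 99.8 and 103 (adjusted p = 0.0133). On dropping polysome replicate 2, 13 solute carriers and 11 RAB genes were lower, 2 annexins and no keratin or actin gene were higher, and without RNA-seq replicate 2, 9 keratins were higher.

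Nuclear regulators lay mostly below the median gene. Of 312 ZNF zinc finger genes 6 were higher (1.92%) and 107 were lower (34.3%), and 10 and 45 after centring, with a median of -0.28 relative to all genes (-0.40 to -0.19 over pairs). Relative to genes of like RA (1 of 5 groups), the ZNF median was -0.06. Chromatin-modifying enzymes had 1 of 64 members higher and 24 lower (37.5%), and HOX genes none of 19 higher and 7 lower (36.8%), against 27.4% of all genes. After centring the counts were 4 and 6 for chromatin enzymes and 1 and 2 for HOX genes. These lower shares, 9.4% and 10.5%, were near the 11.5% of all genes. The HOX median was -0.55 relative to all genes and -0.20 relative to genes of like RA. KAT5, an acetyltransferase, was the chromatin gene called higher, at 14.5, 14.4 and 17.4 RPKM against 28.1 and 27.1 (adjusted p = 0.0167). Without polysome replicate 2, 46 ZNF genes, 5 chromatin enzymes and 1 HOX gene were lower.

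Replication-dependent histones have mRNAs that end in a stem-loop and mostly lack a poly(A) tail. None of 20 tested members was higher and 5 were lower (25%, near the 27.4% of all genes). The list median was -1.63 relative to all genes. Members could enter through RA alone, and their median level was 2.29 RPKM in RA and 0.50 in TA. Over members with at least 1 RPKM in both assays the list median was -0.26, so the low value holds only with the other members included. Both assays were read after mRNA purification, and 53 of the 73 histone genes in the table did not reach 1 RPKM. Without RNA-seq replicate 1 the list median was -0.83 and 3 members were lower, and without polysome replicate 2, 1 member was. Among transcripts annotated as long non-coding RNA, 36 of 57 tested were lower and none higher, with a median log2 ratio of -1.45, and these too could enter through RA alone. CRNDE, a long non-coding RNA raised in colorectal tumours, stood at 3.05, 2.94 and 3.01 RPKM against 0.800 and 1.38 (adjusted p = 0.0144). Nuclear RNA is part of RA but not of TA, and its part in these values was not tested.

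Genes known for control of their translation were examined as a separate group. Ferritin chains FTH1 and FTL, whose mRNAs carry an iron-responsive element in the 5' UTR, were lower in polysomes, within an iron list that had 3 of 11 members lower (27.3%, as in all genes), 7 above the median of all genes and a median of 0.14 relative to it. FTH1 stood at 960, 1009 and 904 RPKM against 283 and 554 (adjusted p = 0.0280) and FTL at 891, 2029 and 1091 against 490 and 573 (adjusted p = 0.0476), without overlap and without a call after centring. IREB2, which binds that element, was lower too, at 16.2, 12.5 and 14.6 against 9.22 and 7.88 (adjusted p = 0.0311), while ACO1, the other iron regulatory protein, was not called. Selenoproteins, which read a UGA codon as selenocysteine, had none of 18 members higher and 6 lower (33.3%, against 27.4% of all genes). After centring 2 were higher and 1 was lower. SEPW1 stood at 84.6, 53.1 and 75.4 against 9.19 and 29.95 (adjusted p = 0.0207), and GPX4 at 171, 135 and 180 against 39.5 and 105 (adjusted p = 0.0447). The 2 polysome libraries were far apart for these genes, and the selenoprotein median was -0.98 relative to all genes without polysome replicate 2 and -0.22 without polysome replicate 1, and 2 selenoproteins were lower without RNA-seq replicate 1.

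Polyamine genes had none of 10 members higher and 5 lower (50%, against 27.4% of all genes). After centring none was higher and 3 were lower (30%, against 11.5% of all genes). Without RNA-seq replicate 1, 6 members were lower, and without RNA-seq replicate 2, 4 members. ODC1, the first enzyme of polyamine synthesis, with a long structured 5' UTR, stood at 170, 153 and 128 RPKM against 47.8 and 55.4, 2.91-fold lower (adjusted p = 0.00924). AMD1, which supplies the aminopropyl donor, stood at 28.2, 30.2 and 29.1 against 14.6 and 15.6 (adjusted p = 0.0109). OAZ1, the antizyme that is made by a ribosomal frameshift and marks ODC1 for degradation, stood at 500, 359 and 404 against 137 and 239 (adjusted p = 0.0257). ODC1 and AMD1 passed after centring and OAZ1 did not.

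Genes with upstream open reading frames and stress-response genes had none of 17 members higher and 3 lower (17.6%, against 27.4% of all genes), namely ATF4, EIF2AK4 and SLC35A4, and the list median changed side over pairs, from -0.82 to 0.91 relative to all genes. ATF4 stood at 174, 317 and 211 RPKM against 108 and 118, 2.07-fold lower (adjusted p = 0.0365, not passed after centring). DDIT3, a target of ATF4, ranged from 30.4 to 358 in RNA-seq and overlapped with 127 and 190 in polysomes. Among p53 genes 2 of 27 were higher (7.41%) and 7 lower (25.9%), shares near those of all genes. The p53 list median was 0.30 relative to all genes and changed side over pairs, from -0.08 to 0.49. GDF15, described above, was the highest. MDM2, the ligase that degrades p53, stood at 34.7, 30.3 and 37.5 against 11.3 and 14.3 (adjusted p = 0.00938), and its relative MDM4 at 7.19, 11.1 and 13.2 against 2.85 and 3.59 (adjusted p = 0.0114). CDKN1A, the cell cycle inhibitor, was lower as well, at 322, 386 and 424 against 179 and 247 (adjusted p = 0.0408), without a call after centring. Without RNA-seq replicate 1, 7 stress-response and 12 p53 genes were lower.

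In the Wnt pathway, which is active in colorectal carcinoma, 1 of 32 members was higher and 14 were lower (43.75%, against 27.4% of all genes). After centring 2 were higher and 4 lower (12.5%, near the 11.5% of all genes). The list median was -0.39 relative to all genes (-0.61 to -0.07 over pairs). RNF43, a ligase that removes Wnt receptors, stood at 18.5, 12.04 and 15.6 RPKM against 3.43 and 5.05, 3.62-fold lower (adjusted p = 0.00938, with 71.0% of its exon length overlapped by another gene). AXIN2, a feedback inhibitor, stood at 3.48, 2.01 and 3.52 against 1.05 and 1.45 (adjusted p = 0.0352). FZD2, a receptor, was the member called higher, at 9.70, 7.76 and 8.98 against 14.2 and 15.5 (adjusted p = 0.0259). CTNNB1, the effector of the pathway, lay above the median gene at 134, 97.1 and 106 against 161 and 157, and passed only after centring. Immediate-early and feedback genes had 1 of 32 members higher and 6 lower (18.8%), with 20 of 32 above the median of all genes. Their list median was 0.31 relative to all genes and changed side over pairs, from -0.01 to 0.82. The members called lower included SPRY2, SPRY4, SPRED1 and SPRED2, inhibitors of growth factor signalling. With polysome replicate 2 left out, 6 Wnt and 2 immediate-early genes were lower.

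Cell cycle families could not be placed on a side, because the libraries of each assay differed in them. Mitotic genes had none of 41 members higher and 1 lower, with a list median between -1.001 and 1.57 relative to all genes over the 6 pairs. Relative to the library median, the median difference of RNA-seq replicate 2 from replicate 1 was -1.58 on the log2 scale, and 1 of 41 members was higher in replicate 2. In polysome replicate 1 the median difference from replicate 2 was -0.87, with 0 of 41 members higher. PLK1, a mitotic kinase, stood at 67.8, 21.1 and 40.7 RPKM in RNA-seq and 40.1 and 78.8 in polysomes. DNA replication genes followed the same libraries, with MCM2, a helicase subunit, at 80.2, 14.4 and 32.3 against 24.6 and 56.2. Without RNA-seq replicate 2, 6 mitotic and 9 replication genes were lower.

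Stress and ER genes ran opposite to these between the same libraries. The ER list was 0.40 higher on the log2 scale in RNA-seq replicate 2 than in replicate 1, in 35 of 38 members, and 0.27 higher in polysome replicate 1 than in replicate 2, in 34 of 38. ASNS, asparagine synthetase, stood at 33.1, 209 and 127 RPKM in RNA-seq and 381 and 196 in polysomes, and its 2.35-fold difference was not called (adjusted p = 0.150). HSPA5, the main ER chaperone, stood at 329, 1681 and 1024 against 2458 and 1624 and was not called either (adjusted p = 0.172). Which RNA-seq culture matches which polysome culture is not stated.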

How the data were processed

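Gene-level RPKM values of 3 RNA-seq and 2 polysome libraries of HCT116 cells were used as deposited. The authors made these RPKM values on human build hg19, with CASAVA, TopHat and HTSeq named in the submitters' processing notes, and the tool versions, the annotation, the strand setting and the treatment of reads shared between genes are not given in the sources used here. All values above 0 came out as whole reads within 0.01 read (100% of them), which gave the library sizes.

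Genes with a mean of at least 1 RPKM in either assay were fitted with limma 3.58.1 (R 4.3.3) on log2(RPKM + 0.1) with a trend, without covariates, and p-values were adjusted by Benjamini and Hochberg over the 11673 genes. Ratios are of linear means, and fitted changes on the log2(RPKM + 0.1) scale understate changes of low genes. The test was checked on simulated data that held no shared differences between cultures. That check therefore covers the fit and not the spread between replicates seen here. Members and lists were chosen with earlier results of these data known. Named genes are the 10 highest and 10 lowest called genes with a mean of at least 10 RPKM, the extremes and contrary calls of each list with at least 5 tested members, LSM and 20S members, and cell markers. RPLP0, RPL41, TOMM5, CRNDE, GPX4, AMD1, OAZ1, ATF4, DDIT3, AXIN2, CTNNB1, PLK1, MCM2 and HSPA5 were chosen after their values were seen. The genes with printed starts were the most abundant in RNA-seq among members of their lists matched to a start, with members on 1 chromosome left out beforehand.

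Lengths and overlaps came from GENCODE 44 on GRCh37 (18772 symbols matched directly, 937 by an older symbol and 347 not), and starts from RefSeq on GRCh38.p14. An overlap over 50% of exon length concerned 342 tested genes and is given beside those named. Alternatives changed the pseudocount, filter, centring, trend, libraries and replicate block. The crossed block, the fit on whole reads (voom) and counts of list members without single libraries were added after seeing the data. Some items are not reported here.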

Additional observations from a re-analysis of the deposited data

How the results depend on the processing

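The counts of genes higher and lower in polysomes (795 and 3204) became 1988 and 1344 with each library centred on its median. With a replicate block, which pairs libraries 1 and 2 by number, both were 0, although 2634 genes had an unadjusted p-value under 0.05, and 210 of 255 named genes lost their call. The numbers do not pair the libraries as far as the data show, since the difference of polysome 1 minus 2 correlated across genes at -0.55 with RNA-seq 1 minus 2, at -0.13 with 1 minus 3 and at 0.71 with 2 minus 3. A crossed pairing, with polysome 1 joined to RNA-seq 2 and polysome 2 to RNA-seq 1, gave 1063 and 3919 calls. It was chosen after seeing the data, and a pairing with RNA-seq 2 and 3 was not fitted. Leaving out each replicate in turn gave 0 to 897 higher and 0 to 3128 lower, with 0 without RNA-seq replicate 3 or polysome replicate 1. On whole reads, voom gave 793 and 3178, and pseudocounts of 0.01 and 1 gave 795 and 3207, and 794 and 3113. No named gene that was called changed direction, and 13 uncalled ones changed sign under at least 1 setting, among them FLNA and ANXA9 with centring.

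The median log2 ratio of -0.36 was -0.30 over genes with at least 1 RPKM in both assays, -0.33 with at least 2 RPKM, 0.0301 after centring and -0.40 to -0.33 with each replicate left out. Among list medians relative to all genes, actin genes were at 0.52 and replication-dependent histones at -0.26 with at least 1 RPKM in both, and solute carriers at 0.17 and the V-ATPase at 0.37 with the replicate block. With each replicate left out the ranges were 0.51 to 0.63 for cholesterol synthesis, -0.37 to -0.0487 for chromatin enzymes, -0.22 to -0.0012 for cilium genes, 0.58 to 0.97 for core snRNP proteins, 0.51 to 0.72 for junctions, 0.055 to 0.24 for iron genes, -1.01 to -0.69 for giant proteins, 0.0484 to 0.11 for solute carriers, -0.98 to -0.22 for selenoproteins, -0.65 to -0.16 for TIM and TOM, 0.48 to 0.55 for tetraspanins, -0.35 to 0.0378 for USP genes, 0.31 to 0.49 for the V-ATPase, 0.28 to 0.50 for mRNA decay and 0.0352 to 0.26 for p53 genes. The causes were not tested. A tested gene had at least 27 reads over the 5 libraries, with a median of 4873.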

Other observations

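Annotated pseudogenes were among the genes tested and differed by kind, and they were not compared with their parent genes. Among 51 processed pseudogenes, which are copies of spliced mRNAs, 5 were higher in polysomes and 14 lower, with a median log2 ratio of -0.29. The share called lower and the median were near those of all genes (27.4% and -0.36). Among 33 transcribed unprocessed pseudogenes none was higher and 21 were lower, with a median of -1.49. How reads shared with a parent gene were counted is not given, and their part in these values was not tested.

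Among families not described above, tubulins, S100 proteins, circadian clock genes and replacement histones had medians that changed side between pairs. Cilium and centrosome genes had 1 of 75 members higher and 26 lower (34.7%, against 27.4% of all genes). After centring 5 were higher and 6 lower (8%, against 11.5% of all genes). STK36, a kinase of ciliary signalling, was the lowest of them, with a log2 ratio of -2.98. DEAD and DEAH box RNA helicases had 8 of 50 members higher and 5 lower, with a median of 0.57 relative to all genes, and hnRNP proteins, which package nascent RNA, had 1 of 20 members higher and none lower. Without RNA-seq replicate 1, 7 hnRNP members were called, and without polysome replicate 2 none was, while 5 cilium genes were lower and 1 helicase was higher.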
